A study of Homo sapiens with 4 samples.

Results

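The RNAs described here are designed oligonucleotides that carry at least 4 copies of GGAC, the sequence in which an adenosine follows 2 guanosines and precedes a cytidine. They were chosen by sequence alone, with T written for U and with any base after the C. The rule took 315 of 11999 oligonucleotides. Each of these sequences was present as 3 oligonucleotides that differed in their tag, so the 315 oligonucleotides were 105 of 3949 different sequences. Together they held 445 GGAC adenosines. The RNAs were in vitro transcripts of human transcript regions, incubated with the recombinant METTL3–METTL14 complex (methylated, 2 libraries) or without it (unmethylated, 2 libraries). Both groups went through UV crosslinking to the same antibody against N6-methyladenosine (m6A) and through miCLIP2, from 500 ng of RNA. The deposited table gives the count of crosslink events at each of 141 positions of each oligonucleotide.

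METTL3 is the catalytic subunit of the m6A writer and METTL14 is its partner in binding RNA. In cells the complex methylates adenosines in DRACH, where D is any base but C, R is a purine and H is any base but G, and GGAC is known as a strong core of that motif. In miCLIP2 reverse transcription stops at the peptide left by the crosslinked antibody, so stops pile up at or next to the modified base. A stop further along the RNA prevents the enzyme from reaching motifs nearer the 5′ end of the same molecule.

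Among the 105 sequences, 85 held 4 GGAC motifs, 16 held 5, 3 held 6 and 1 held 7. Just outside the rule lay 298 sequences with 3 motifs. The m6A class of the design, centred on adenosines that carry m6A in HEK293T (a line from human embryonic kidney), gave 77 of its 1988 sequences (3.87%). The class around unmodified DRACN adenosines gave 22 of 1500 (1.47%), and the permutated class, in which the motif at position 51 was exchanged, gave 6 of 400. The adenosine selected by the study lies at position 51, and in 89 of the 105 sequences that adenosine was itself in GGAC. The distance to the nearest other GGAC ran between 4 and 88 nt, with a median of 16 nt. In all, 153 of the 445 adenosines had another within 10 nt, 116 within 11 to 20 nt, and 176 only beyond 20 nt. The first and last motif of a sequence were 24 to 135 nt apart (median 88 nt). The crowded sequences were richer in G and C than the whole design, with a median of 63.8% against 56.7%. They lay on 21 chromosomes, and 93 fell in exactly 1 RefSeq gene, 85 different genes in all.

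A few sequences are printed because the results turn on them: those with the most motifs, those with tightly or evenly spaced motifs, those with large or uneven changes, and 2 versions of 1 locus. They run 5′ to 3′ over the 141 measured positions, and capitals mark each GGAC.
PRDM16: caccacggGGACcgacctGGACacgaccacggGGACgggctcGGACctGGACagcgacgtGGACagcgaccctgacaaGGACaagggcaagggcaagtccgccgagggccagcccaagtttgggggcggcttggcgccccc
STK11, 6 motifs: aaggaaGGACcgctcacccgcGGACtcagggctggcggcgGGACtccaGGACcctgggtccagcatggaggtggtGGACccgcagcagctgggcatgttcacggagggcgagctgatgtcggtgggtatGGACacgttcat
STK11, 4 motifs: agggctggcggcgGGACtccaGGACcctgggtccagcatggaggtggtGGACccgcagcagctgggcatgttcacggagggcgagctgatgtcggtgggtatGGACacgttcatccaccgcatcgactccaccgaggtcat
SNX21: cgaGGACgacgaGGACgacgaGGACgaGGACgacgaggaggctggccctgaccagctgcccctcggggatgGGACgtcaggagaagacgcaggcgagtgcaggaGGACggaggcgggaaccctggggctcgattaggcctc
AFF1: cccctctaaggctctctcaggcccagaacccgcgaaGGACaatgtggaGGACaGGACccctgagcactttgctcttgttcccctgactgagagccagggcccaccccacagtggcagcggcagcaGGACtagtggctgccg
VIM-AS1/VIM locus: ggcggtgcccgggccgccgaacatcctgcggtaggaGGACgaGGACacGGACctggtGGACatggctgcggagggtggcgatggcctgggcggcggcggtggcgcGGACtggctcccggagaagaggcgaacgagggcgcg
SON: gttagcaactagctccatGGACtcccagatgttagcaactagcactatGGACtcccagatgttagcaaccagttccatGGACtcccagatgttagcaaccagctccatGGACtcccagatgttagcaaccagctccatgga
OPRL1: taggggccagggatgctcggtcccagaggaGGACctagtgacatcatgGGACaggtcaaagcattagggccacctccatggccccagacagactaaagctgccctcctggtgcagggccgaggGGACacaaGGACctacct
LRFN1: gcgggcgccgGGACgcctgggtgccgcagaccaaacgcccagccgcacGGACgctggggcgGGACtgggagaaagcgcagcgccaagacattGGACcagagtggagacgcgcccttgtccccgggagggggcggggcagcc
PACSIN2: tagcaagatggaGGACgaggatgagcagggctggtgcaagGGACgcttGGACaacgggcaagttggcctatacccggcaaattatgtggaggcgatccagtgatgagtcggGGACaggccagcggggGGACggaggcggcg
HIF1AN: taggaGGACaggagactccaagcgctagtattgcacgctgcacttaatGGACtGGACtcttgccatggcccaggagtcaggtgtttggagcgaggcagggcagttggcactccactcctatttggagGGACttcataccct
VARS1 with GGACT at position 51: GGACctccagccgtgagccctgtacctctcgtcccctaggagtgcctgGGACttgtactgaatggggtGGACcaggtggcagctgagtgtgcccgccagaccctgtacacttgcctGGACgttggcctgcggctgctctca
VARS1 with GGACA at position 51: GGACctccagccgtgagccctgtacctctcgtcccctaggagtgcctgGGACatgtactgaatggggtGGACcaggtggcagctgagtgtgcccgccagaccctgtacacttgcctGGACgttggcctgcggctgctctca

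The table places these at chromosome 1 position 3412074 (PRDM16, + strand), chromosome 19 positions 1206900 and 1206927 (STK11, +), chromosome 20 position 45834427 (SNX21, +) and chromosome 4 position 87114938 (AFF1, +). It places the others at chromosome 10 position 17229435 (VIM-AS1/VIM, −), chromosome 21 position 33551606 (SON, +), chromosome 20 position 64098988 (OPRL1, +) and chromosome 19 position 39307575 (LRFN1, −). The last are at chromosome 22 position 42871409 (PACSIN2, −), chromosome 10 position 100548247 (HIF1AN, +) and chromosome 6 position 31779803 (VARS1, −). The build is not given in the sources used here, and exon, intron or untranslated-region annotation was not used here. The 2 STK11 sequences overlap and are shifted by 27 nt, so that 4 of their motifs are the same adenosines at different places in the oligonucleotide. In the whole set 7 such pairs, 14 sequences, overlapped. In SON the motifs recurred at positions 21, 51, 81 and 111, that is, every 30 nt.

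The methylated libraries held 13110615 and 13265092 counts and the unmethylated libraries 10483825 and 12028474. The crowded oligonucleotides took 4.99% and 5.07% of the methylated libraries and 4.43% and 4.38% of the unmethylated ones. A crowded sequence had between 2 and 172431 counts over the 4 libraries, with a median of 8427 against 3254 for all sequences. Crowded oligonucleotide totals differed between replicates by more than sampling noise, with chi-square over degrees of freedom of 30.4 in the methylated and 30.7 in the unmethylated group. Levels are given in CPM, the count as a part of its library's total over the whole design.

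Counts at the GGAC adenosines of the crowded oligonucleotides were higher in the methylated libraries. Over all 445 adenosines, tested or not, the mean level was 6.03 ± 0.158 CPM per adenosine in the methylated libraries and 1.83 ± 0.0727 CPM in the unmethylated ones (SD, n = 2 each), which is 3.30 times as much. These adenosines are 3.01% of the crowded positions. They took 5.48% and 5.19% of the crowded counts in the methylated libraries, against 1.78% and 1.91% in the unmethylated ones. The groups did not overlap. The exact permutation p was 0.333 (two-sided), the lowest value possible with 2 libraries on each side. GGAC adenosines held 1871 of the 6267 CPM by which the crowded sequences as a whole were higher, or 29.9%.

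Site by site, with the 3 tag copies of a sequence summed, 232 of the 445 adenosines had at least 10 counts in at least 2 libraries and were tested with edgeR. Of these, 127 were called higher in the methylated libraries and 0 lower (54.7% of those tested), where 3.70% of all 142938 tested positions of the design were called higher and 2.01% lower. No member was lower at an unadjusted p below 0.05, or called lower by DESeq2. The median log2 fold change was 1.65 over the tested members and -0.01 over all tested positions. The filter shapes these counts, because 80 of the 232 passed through the methylated libraries alone. Among the 113 with both unmethylated libraries at the minimum, 55 were called higher. Of the 213 adenosines not tested, 35 had no count in any library. Without any filter, both methylated libraries lay above both unmethylated ones at 279 of the 445 adenosines and below them at 12. The 445 include the 35 without a count. Of all positions with a count 18.3% lay above, and the share below was not counted.

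The copies taken one at a time gave 382 tested adenosines of 1335, with 190 called higher and 0 lower, against 3.80% and 1.84% of all tested positions. Without methylated replicate 1 edgeR called 124 higher, and DESeq2 called 125 higher and 0 lower on all 4 libraries. At an unadjusted edgeR p below 0.05, 1 was lower. When each position was set against the total of its own oligonucleotide, 161 were called higher and 0 lower by edgeR (4 were lower at an unadjusted p below 0.05), against 1.58% and 0.296% of all tested positions. At 65 adenosines all 3 copies were tested. There the copies gave 3 calls at 22, 2 calls at 12, 1 call at 18 and none at 13, and the fold changes of 2 copies correlated with Pearson r between 0.631 and 0.758 over 73 to 95 adenosines. Copies share their sequence and their libraries, so these are repeat readings of one RNA and not independent samples.

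Other positions of the same oligonucleotides differed less. Adenosines in other DRACH motifs had a ratio of methylated to unmethylated CPM of 2.16, with 20 of 64 tested called higher. Other adenosines before C had a ratio of 1.28, and GGA adenosines not before C a ratio of 1.02, with 7 of 111 tested called higher. The C of the GGAC itself had a ratio of 1.22. Among all other C, G and T positions 237 of 4672 tested were called higher and 17 lower. Measured along the RNA, the base just 5′ of the GGAC adenosine stood at 3.11 ± 0.236 CPM in the methylated libraries, against 2.03 ± 0.0366 CPM in the unmethylated ones (SD, n = 2 each), 1.53 times as much. The other positions within 6 nt on either side had ratios between 1.06 and 1.28. The difference was therefore sharpest at the adenosine.

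Most sequences showed the change when their motifs were added up, but few showed it at every motif. Summed GGAC counts were higher in both methylated libraries than in both unmethylated ones in 93 of the 105 sequences and lower in 0, where 59.0% of all sequences with a GGAC were higher. That share was 48.6% with 1 motif, 67.6% with 2, 76.8% with 3 and 88.6% with 4 or more, and a sum over more motifs also holds more counts. Lower sums made up 2.14%, 2.92% and 1.34% of the sequences with 1, 2 and 3 motifs. At least 1 motif was called higher in 63 sequences and at least 3 in 21, and 27 sequences had no tested motif. Of 67 sequences with at least 2 tested motifs, 16 had all of those called, 38 some and 13 none. The log2 fold changes within such a sequence spanned a median of 2.23, between 0.24 and 6.73. Of the 21 sequences with every motif tested, 5 had every motif called: AFF1, LZTS3, ING5, APEH and the locus shared by VIM and VIM-AS1, named here after their values were seen.

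AFF1, a scaffold of the super elongation complex, was called higher at all 4 motifs. All 4 passed the filter through the methylated libraries alone. Position 51 had 57 and 61 counts in the methylated libraries, against 0 and 0 in the unmethylated ones, at least 16.7-fold higher against a floor of 3 counts per library (edgeR adjusted p = 1.88e-06). Its neighbour at position 56, only 5 nt away, had 28 and 26 counts in the methylated libraries, against 0 and 2 in the unmethylated ones. Position 39 had 92 and 137 counts in the methylated libraries and 3 and 5 in the unmethylated ones, and position 128 had 52 and 61 in the methylated libraries, against 7 and 1 in the unmethylated ones. The groups overlapped at none of the 4 positions. In the VIM-AS1/VIM sequence, VIM coding for the filament protein vimentin, 4 motifs lie within 21 nt. Those at 39, 45, 51 and 60 had log2 fold changes of 1.59 ± 0.341, 1.59 ± 0.375, 1.64 ± 0.338 and 1.51 ± 0.333 (SE), and the distant one at 108 had 1.04 ± 0.310. The total of that sequence was not higher: its counts were 12884 and 9959 in the methylated libraries, against 10461 and 11771 in the unmethylated ones. LZTS3 differed more between its motifs, with log2 fold changes between 1.95 and 5.39. ING5 and APEH spanned 1.03 to 2.44 and 1.97 to 4.12.

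OPRL1, the nociceptin receptor, had the largest fitted fold change among motifs with counts in all 4 libraries, close to that of SH3BP4 position 69 (5.90 ± 0.477 on the log2 scale, SE). Position 51 had 501 and 569 counts in the methylated libraries, against 6 and 8 in the unmethylated ones, a log2 fold change of 5.97 ± 0.384 (SE, edgeR adjusted p = 1.34e-09). That position passed the filter through the methylated libraries alone, also in each of its copies. All 3 copies were called there, with log2 fold changes of 5.78, 7.23 and 5.72. Set against the total of their own oligonucleotide, these were 4.87, 6.28 and 4.04. Positions 126 and 134, which lie 8 nt apart near the 3′ end, rose by 3.67 and 4.26 on the log2 scale. Position 33 had 14 and 47 counts in the methylated libraries, against 2 and 11 in the unmethylated ones. It did not overlap between groups and missed the threshold (edgeR adjusted p = 0.0749).

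In SON, which codes for a splicing protein of nuclear speckles, 3 of the 4 evenly spaced motifs were tested and all were called. The motif at position 51 passed the filter through the methylated libraries alone. Position 51 had 108 and 138 counts in the methylated libraries, against 3 and 0 in the unmethylated ones, a ratio of 70.0 (95% counting interval 23.7 to 342). The fitted log2 fold change of 5.99 moved to 4.98 without unmethylated replicate 2 and to 9.88 without unmethylated replicate 1, where no unmethylated count was left and the value depends on the prior count. It stayed called in both. Positions 81 and 111 rose by 4.16 and 4.47 on the log2 scale. Position 21, with the same spacing, had 3 and 1 counts in the methylated libraries and 0 and 0 in the unmethylated ones. Copy 3 held most of these counts, with 100 and 132 of those at position 51 in the methylated libraries. In this copy the log2 fold change at position 51 was 5.91, and 4.09 against the total of the oligonucleotide.

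The other large rises had few or no counts in the unmethylated libraries and passed the filter through the methylated libraries alone. MRTFA, a coactivator of serum response factor, had 44 and 28 counts at position 51 in the methylated libraries, against 0 and 0 in the unmethylated ones, at least 10.2-fold higher. MIIP had 55 and 64 counts at position 127 in the methylated libraries, against 1 and 0 in the unmethylated ones, a ratio of 102 (95% counting interval 17.9 to 4045). Its fitted log2 fold change of 6.34 moved to 5.42 without unmethylated replicate 2 and to 8.83 without unmethylated replicate 1, again with no unmethylated count left, and it stayed called. Against 0 in both unmethylated libraries, the bounds were at least 5.37-fold at PDRG1 position 77, 4.52-fold at position 51 of a chromosome 16 locus (position 803646) in no gene, and 4.40-fold at position 138 of the permutated ARMC6 sequence with GGACA. They were 3.68-fold at CAMKK2 position 24 and 3.54-fold at position 138 of the second PACSIN2 sequence, which LOC101927393 also overlaps. These 5 calls were lost when a methylated library was left out. Without methylated replicate 2 the edgeR adjusted p was 0.0681 at PDRG1, 0.0925 at the chromosome 16 locus and 0.0925 at the second PACSIN2 sequence. Without methylated replicate 1 it was 0.197 at ARMC6, 0.116 at CAMKK2 and 0.0865 at the second PACSIN2 sequence.

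Few motifs were called in the sequences with 6 or 7 of them. With 5 motifs 30 of 42 tested ones were called higher, and with 4 motifs 95 of 176. PRDM16, a transcription factor of brown fat, had 7 motifs within 70 nt, of which 6 were tested and 2 called, both at its 3′ side. Position 81 had 256 and 189 counts in the methylated libraries, against 24 and 15 in the unmethylated ones (log2 fold change 3.24 ± 0.365, SE), and position 63 had 38 and 64 in the methylated libraries, against 4 and 8 in the unmethylated ones (2.80 ± 0.504). The motif at 63 passed the filter through the methylated libraries alone. Position 51, only 12 nt from the motif at 63, had 34 and 23 counts in the methylated libraries and 11 and 11 in the unmethylated ones, and position 45 had 21 and 13 in the methylated libraries, against 19 and 21 in the unmethylated ones. The 3 sequences with 6 motifs, STK11, FIZ1 and SNX21, had 8 tested motifs and 0 calls by edgeR. Of these 8 motifs 3 had an unadjusted p below 0.05, and DESeq2, which gave an adjusted p for 3 of the 8, called 0. Together they had 471 ± 2.53 CPM in the methylated libraries and 514 ± 46.2 CPM in the unmethylated ones (SD, n = 2 each). Their GGAC share was 3.22% in the methylated libraries, against 1.59% in the unmethylated ones.

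The STK11 pair shows the same adenosines at different places. STK11 codes for the tumour-suppressor kinase LKB1. The adenosine at position 132 of the 6-motif sequence is at position 105 of the 4-motif sequence. It had 5 and 4 counts in the methylated libraries, against 3 and 1 in the unmethylated ones, at position 132. At position 105 it had 41 and 62 counts in the methylated libraries, against 1 and 1 in the unmethylated ones, and was called there (log2 fold change 5.27 ± 0.671, SE, edgeR adjusted p = 1.33e-05). It passed the filter at position 105 through the methylated libraries alone. The one at position 78, or 51 in the other sequence, had 37 and 28 counts in the methylated libraries, against 15 and 20 in the unmethylated ones, at position 78. At position 51 it had 33 and 36 in the methylated libraries, against 43 and 23 in the unmethylated ones. Neither was called. The difference between the 2 sequences was not tested.

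SNX21, a sorting nexin, had motifs at 6, 15, 24 and 30 and at each of them at most 10 counts in any library. FIZ1, a zinc-finger protein, had 16 and 16 counts at position 70 in the methylated libraries, against 3 and 4 in the unmethylated ones, without overlap (edgeR adjusted p = 0.109). GAA, the lysosomal acid alpha-glucosidase, had 5 motifs, of which 3 of the 4 tested were called, with log2 fold changes of 2.71 at position 42, 2.54 at 51 and 1.57 at 93. Its motif at 63, 12 nt from a called one, had 83 and 90 counts in the methylated libraries, against 55 and 53 in the unmethylated ones.

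PACSIN2, a membrane-bending protein of endocytosis, had 3 of 5 motifs called. Position 15 had 69.6 and 51.1 CPM in the methylated libraries, against 5.34 and 6.90 CPM in the unmethylated ones, a log2 fold change of 3.27 ± 0.310 (SE). Position 51 had 83.4 and 38.9 CPM in the methylated libraries, against 23.7 and 33.8 CPM in the unmethylated ones. These libraries did not overlap but the 2 methylated ones lay far apart, and the edgeR adjusted p was 0.0511. Without methylated replicate 2 it was 0.0014 and without methylated replicate 1 it was 0.804. It was 0.0018 without unmethylated replicate 2, 0.119 without unmethylated replicate 1 and 0.0372 without TMM scaling. Position 114 had 7.40 and 8.07 CPM in the methylated libraries, against 8.49 and 9.73 CPM in the unmethylated ones, so both methylated libraries were lower there, although this was not called (edgeR adjusted p = 0.707).

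The deepest sequences showed the same unevenness at counts where most of their motifs could be tested, though not all. BCKDK, the kinase that switches off branched-chain ketoacid dehydrogenase, had 172431 counts in all. Its position 51 had 106 and 135 CPM in the methylated libraries, against 12.2 and 11.8 CPM in the unmethylated ones (log2 fold change 3.30 ± 0.284, SE), position 76 rose by 2.14, and position 124 had 5.03 and 7.76 CPM in the methylated libraries, against 3.34 and 2.66 CPM in the unmethylated ones, and missed the threshold (edgeR adjusted p = 0.0812). LRFN1, a synaptic adhesion protein, had high levels in both groups. Position 95 had 110 and 141 CPM in the methylated libraries, against 12.0 and 11.2 CPM in the unmethylated ones, and position 64 had 1329 and 1075 counts in the methylated libraries, against 326 and 367 in the unmethylated ones. Both were called. Position 51 had 107 and 104 CPM in the methylated libraries, against 47.8 and 66.4 CPM in the unmethylated ones, and position 13 had 31.1 and 42.1 CPM in the methylated libraries, against 10.7 and 24.7 CPM in the unmethylated ones. Neither of these was called (edgeR adjusted p = 0.0603 and 0.0744), although the groups did not overlap at either. Without unmethylated replicate 2 both were called (edgeR adjusted p = 0.0090 at 51 and 8.82e-05 at 13), with a log2 fold change at 13 of 1.77, against 0.50 without unmethylated replicate 1. Position 13 was also called without methylated replicate 1 (0.0425), and position 51 without TMM scaling (0.0379). They were among the 5 motifs with the highest levels that were not called, with PACSIN2 position 51, NKX3-2 position 66 (edgeR adjusted p = 0.162) and position 112 of the locus shared by ABHD15 and TP53I13 (edgeR adjusted p = 0.585).

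CREBZF, a basic leucine zipper protein, rose at position 51, with 92.1 and 70.2 CPM in the methylated libraries, against 5.63 and 6.15 CPM in the unmethylated ones, and at position 102 by 1.39 on the log2 scale. Its motifs at 87 and 114, which flank position 102 by 15 and 12 nt, had edgeR adjusted p of 0.129 and 0.700. RPS6KL1, a kinase-like protein, rose at position 51 by 2.69, while position 24 had 27.2 and 28.0 CPM in the methylated libraries and 14.2 and 25.0 CPM in the unmethylated ones. HIF1AN, the hydroxylase that acts on HIF1A, had 110623 counts but GGAC shares of only 0.28% and 0.33% in the methylated libraries and 0.06% and 0.06% in the unmethylated ones. Position 51 had 46 and 36 counts in the methylated libraries, against 1 and 3 in the unmethylated ones, and was called (log2 fold change 4.03 ± 0.631, SE). It passed the filter through the methylated libraries alone. Position 56, 5 nt away, had 2 and 18 counts in the methylated libraries, against 0 and 2 in the unmethylated ones, and could not be tested.

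There were 5 loci present with other motifs at position 51, which leaves most of the remaining motifs in place: HIF1AN, VARS1, TUBG1, ARMC6 and PDIA3. Around HIF1AN, position 56 had 0.351 per 1000 counts of its sequence in the methylated libraries and 0.037 per 1000 in the unmethylated ones while GGACT stood at position 51. With AGACT there it had 5.99 per 1000 in the methylated libraries and 1.42 in the unmethylated ones, and with TGACT 3.80 in the methylated and 1.55 in the unmethylated libraries. With TAACC it had 2.98 in the methylated and 0.333 in the unmethylated libraries. With GAACC it had 0.517 in the methylated and 0.639 in the unmethylated libraries, and with AAACC 0.258 in the methylated libraries and no count in the unmethylated ones. The level at position 56 varied between versions in both groups, and in the methylated libraries it lay between 0.258 and 0.517 in 3 versions and at or above 2.98 in the others. VARS1, the valyl-tRNA synthetase, reached 4 GGAC by permutation. Its position 119 had 40.8 per 1000 counts in the methylated libraries and 9.90 in the unmethylated ones with GGACT at position 51, and 70.7 in the methylated and 6.70 in the unmethylated libraries with GGACA. Of the versions with 3 motifs, AAACC had 50.2 in the methylated and 10.4 in the unmethylated libraries there, and GAACT 35.3 in the methylated and 7.17 in the unmethylated libraries. In the methylated libraries the GGACT value there lay between those with 3 motifs, and the GGACA value lay above both. At TUBG1, a gamma-tubulin, position 115 had less with 4 motifs: 5.72 (GGACT) and 2.02 (GGACA) per 1000 in the methylated libraries, beside 18.2 (GAACT) and 34.0 (TGACA) with 3. These rest on at most 18 counts in a library, and the unmethylated libraries held 1 count there in all, with GAACT. At ARMC6 position 138 went the other way, with 5.86 (GGACT) and 9.35 (GGACA) per 1000 in the methylated libraries with 4 motifs, beside 2.28 with 3 (GAACT) and 1.34 with 2 (TGACC), and no count in the unmethylated libraries. The PDIA3 sequence with 4 motifs had at most 3 counts at any of them in a library. These differences between versions were not tested.

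Spacing was compared over all 445 adenosines. Those with another GGAC within 10 nt and those with none within 20 nt differed in the pooled ratio by -0.257 on the log2 scale, close minus apart. The exact permutation p was 0.333, the smallest possible. The difference was -0.062 when each sequence had equal weight, where the groups overlapped (exact permutation p = 0.667). It was -0.143 without BCKDK, the sequence with the highest total, and -0.149 without methylated replicate 2. Larger differences were -0.365 without methylated replicate 1 and -0.398 for at most 6 nt against more than 30 nt. Per adenosine, the ratio of methylated to unmethylated CPM was 2.98 at up to 6 nt, 3.01 at 7 to 10 nt, 3.19 at 11 to 20 nt, 3.38 at 21 to 30 nt and 3.93 beyond 30 nt. The share of tested motifs called higher reached 58.2% at 11 to 20 nt and had no such order, with 19 of 34, 25 of 46, 32 of 55, 28 of 51 and 23 of 46 called in these bins. Between neighbouring tested motifs, 137 pairs in all, the log2 fold changes differed by a median of 1.16. This was 0.82 in 35 pairs within 10 nt and 1.23 in 79 pairs more than 20 nt apart. The motif nearer the 3′ end had the higher fold change in 56 of the 137 pairs. Both members were called in 51 pairs, 1 in 49 and none in 37.

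The order along the RNA gave no stable difference. The change at the most 3′ motif minus that at the most 5′ motif was -0.053 on the log2 scale (exact permutation p = 1). It turned to 0.053 with equal weight per sequence and to 0.043 when motifs near either end were left out. Leaving out 1 library at a time gave values between -0.256 and 0.149, above 0 without methylated replicate 1 or without unmethylated replicate 1. By place, the ratio of methylated to unmethylated CPM was 3.87 at positions 1 to 20, 2.89 at 21 to 40, 3.45 at 41 to 60 and 3.20 at 61 to 80. It was 3.44 at 81 to 100, 2.37 at 101 to 120 and 6.48 beyond 120. In the last bin the level was 3.16 ± 0.387 CPM per adenosine in the methylated libraries and 0.487 ± 0.0775 CPM in the unmethylated ones (SD, n = 2 each), the lowest unmethylated level of these bins.

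The pooled ratio of methylated to unmethylated CPM varied with the base after the C, which was not tested. GGACA adenosines had a ratio of 4.47, GGACG 3.25, GGACC 3.23 and GGACU 2.63, and 42 of 60, 23 of 38, 31 of 73 and 30 of 60 tested ones were called higher. The shares called did not follow the order of the ratios, with GGACC lowest at 42.5%, against 50% for GGACU. In sequences with a single GGAC the ratios were 4.39, 4.08, 3.96 and 3.22 in the same order of bases. Of their tested adenosines 66.4%, 66.2%, 56.0% and 62.7% were called higher, again with GGACC lowest. Between classes, the 24 adenosines of permutated sequences had 2.62 ± 0.120 CPM in the methylated libraries and 0.194 ± 0.0398 CPM in the unmethylated ones, a ratio of 13.5, and all 7 tested were called higher. Of these 7, 6 lie in the 2 VARS1 versions, 1 locus, and 4 passed the filter through the methylated libraries alone. The 8 VARS1 adenosines had 7.34 ± 0.356 CPM in the methylated libraries and 0.538 ± 0.0993 CPM in the unmethylated ones. The other 16 permutated adenosines had 0.265 ± 0.0022 CPM in the methylated libraries and 0.0227 ± 0.0101 CPM in the unmethylated ones (SD, n = 2 each). The unmodified class had 3.39 CPM in the methylated libraries and 0.849 CPM in the unmethylated ones, a ratio of 3.99. The m6A class had 7.01 CPM in the methylated libraries and 2.21 CPM in the unmethylated ones, a ratio of 3.17. For single-motif sequences the ratios were 8.92 (permutated), 3.74 (unmodified) and 4.07 (m6A). Pairing was predicted from each sequence alone, and the probability of being unpaired was split into 3 equal ranges. The 92 adenosines predicted least often unpaired had a ratio of 4.11 and the 307 predicted most often unpaired a ratio of 3.23. The difference in level ran the other way. Per adenosine, the methylated libraries were higher by 2.04 CPM in the former and by 5.13 CPM in the latter. The unmethylated level was 0.656 CPM in the former and 2.31 CPM in the latter. Over the 232 tested adenosines, which share libraries and base composition, the fold change and the unpaired probability had Spearman's rho of -0.20.

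Compared with sequences that hold fewer motifs, the crowded ones had more counts in both groups and a smaller pooled ratio. Per GGAC adenosine the level in the methylated libraries was 3.73 CPM with 1 motif, 4.21 with 2, 5.63 with 3 and 6.03 with 4 or more. In the unmethylated libraries it was 0.961, 1.13, 1.68 and 1.83 CPM. The ratios were 3.88, 3.72, 3.34 and 3.30. On the log2 scale the change in crowded sequences minus that in sequences with 1 motif was -0.236, with an exact permutation p of 0.333. It was -0.448 with equal weight per sequence, and -0.126 when only the adenosine at position 51 was used. Among sequences within the middle GC range of the crowded ones (60.3% to 67.4%) it was -0.132, but the groups overlapped there: the log2 ratio of crowded to 1-motif levels was -0.16 and -0.15 in the methylated libraries, against 0.11 and -0.16 in the unmethylated ones (exact permutation p = 0.667). The crowded sequences also held fewer GGACA among their motifs (23.8%, against 29.9% with 1 motif). The part of these differences in the ratio was not tested. As a share of its own sequence, each motif held 1.26% of the counts in the methylated libraries and 0.435% in the unmethylated ones with 4 or more motifs, and 1.55% in the methylated libraries and 0.392% in the unmethylated ones with 1 motif.

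Whole oligonucleotides moved far less than their GGAC adenosines. Of 315 crowded oligonucleotides, 296 were tested, 54 were called higher and 5 lower, against 7.89% and 4.38% of all tested oligonucleotides. Without unmethylated replicate 2, 30 were called higher. The median log2 fold change was 0.24, against 0.01 over all tested. The summed CPM of the crowded sequences was 50299 ± 573 in the methylated libraries and 44033 ± 331 in the unmethylated ones (SD, n = 2 each), a ratio of 1.14. That ratio was 0.928 for sequences without GGAC, 0.984 with 1, 1.04 with 2 and 1.08 with 3. CPM divides a fixed total, so a rise in one group of sequences lowers the others. Both methylated libraries lay above both unmethylated ones in 51 of the 105 sequence totals and below them in 14, where 27.2% of all sequence totals lay above. The share below was 13.3% here, against 23.0%, 19.5% and 15.4% of sequence totals with 1, 2 and 3 motifs. Calls differed between copies: 35 sequences had at least 1 copy called higher, 6 had all 3, and 3 had at least 1 copy called lower.

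The largest rise of a total was in 1 copy of GATA4, a cardiac transcription factor, with 1126 and 1127 counts in the methylated libraries, against 153 and 186 in the unmethylated ones (log2 fold change 2.50 ± 0.198, SE). Its GGAC adenosines carried little of this. Over the 3 copies the sequence was higher by 136 CPM, and its GGAC adenosines by 2.06 CPM, while a G at position 94 was higher by 35.4 CPM. The TUBG1 permutated sequence with GGACT had 1 copy at 52 and 95 counts in the methylated libraries, against 18 and 14 in the unmethylated ones, and 2 copies that were not called. SON copy 3 had 1962 and 2497 counts in the methylated libraries, against 442 and 580 in the unmethylated ones (1.88 ± 0.199). The position with the largest gain in SON was an A at position 47, 4 nt before a GGAC adenosine, with 130 and 179 counts in the methylated libraries, against 33 and 18 in the unmethylated ones. OPRL1 had the largest gain of any crowded sequence in CPM, 1197, of which 108 CPM lay at its GGAC adenosines.

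The largest falls of a total were in BRD2, SGSM2 and FBXO44. BRD2, a chromatin reader, had 1 copy at 182 and 147 counts in the methylated libraries, against 321 and 363 in the unmethylated ones (log2 fold change -1.28 ± 0.221, SE), while its other copies were not called. Of its 4 motifs 2 were tested and 0 called. SGSM2 fell in both tested copies, with 146 and 200 counts in the methylated libraries, against 285 and 312 in the unmethylated ones, in copy 1, and none of its motifs had enough counts to be tested. FBXO44 fell in 2 of 3 copies, but its GGAC adenosines at 13 and 118 were called higher, by 3.21 and 1.09 on the log2 scale. Over all 105 sequences, the position with the largest gain in CPM was a GGAC adenosine in 31, another adenosine in 16 and another base in 58.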

How the data were processed

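The deposited table holds raw whole-number counts of crosslink events at each position of each oligonucleotide in 4 libraries, 2 methylated and 2 unmethylated. Per the submitters' processing notes, FastQC 0.11.8, STAR 2.7.3a and bedtools 2.27.1 were used, with no role given. The genome build is not given in the sources used here. Whether the replicates came from separate reactions is not stated, so p-values measure a spread that may be technical.

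Members were the oligonucleotides with at least 4 GGAC. Members and lists were chosen with earlier results of these data known. Counts were tested with edgeR 4.0.16 (R 4.3.3; quasi-likelihood F test, TMM, Benjamini-Hochberg adjustment over all features tested, threshold 0.05) for features that reached 10 counts in 2 or more of the 4 libraries. Fits ran on single positions, on positions with the oligonucleotides of a sequence summed, on oligonucleotide totals, and on positions with the oligonucleotide total as offset. SE is the absolute log2 fold change over the square root of F. The fits were tested on simulated counts with known changes. Pooled values were compared over libraries by exact permutation (two-sided, smallest p 0.333). Bounds against 0 use a floor of 3 counts per library. The 95% counting intervals are exact conditional binomial ones and, like the floors, cover counting error only.

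Named with their motifs were the 6 sequences with the most motifs and the 6 others with the highest totals. Named as single sites were the 10 called rises with the highest fitted log2 fold change and no overlap of the groups and the 5 motifs with the highest mean CPM not called, and as totals the 3 largest rises and the 3 largest falls. Names are RefSeq genes (GRCh38.p14) that overlap the deposited locus on either strand. Among all loci 98.7% lay in a gene as deposited, against at most 72.2% when shifted by 50000 nt or more. Pairing was predicted with ViennaRNA 2.7.2. Python 3.11.15, pandas 2.3.3, numpy 2.4.6 and scipy 1.17.1 were used. Same-numbered libraries did not deviate together (r = -0.303 over oligonucleotide totals, -0.119 over positions), so the numbers were not taken as pairs. Alternatives were DESeq2 1.42.0, other filters and scalings, the replicate block, each library left out, and equal weight per sequence.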

Additional observations from a re-analysis of the deposited data

How the results depend on the processing

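The GGAC share of crowded counts was higher in the methylated libraries under every alternative run, by 3.10 to 4.28 percentage points (3.49 as reported), and by 3.35 to 3.63 when each library was left out. The change in crowded minus 1-motif sequences stayed between -0.448 and -0.126, with overlapping groups under GC matching. That at close minus apart motifs stayed between -0.398 and -0.062, with overlapping groups at equal weight per sequence. The change at the most 3′ minus the most 5′ motif reversed, to 0.053 with equal weight per sequence and 0.043 within the central positions, and ran between -0.256 and 0.149 with each library left out. It turned positive without methylated replicate 1 (0.081) and without unmethylated replicate 1 (0.149). The cause was not tested.

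Called GGAC adenosines of single oligonucleotides (190) fell to 93 with at least 50 counts in 2 libraries, where fewer were tested. DESeq2 called 125 and gave 31 of the 190 no adjusted p. With each library left out the count ran between 124 and 178. Against oligonucleotide totals (161) the stricter filter gave 87. Called totals (54) ran between 30 and 52 with each library left out. With oligonucleotides summed (127), the counts lay between 90 and 142, all 98 calls of DESeq2 were among the 127, and 13 of the 127 had no adjusted p there. Over the 139 alternatives run on the named adenosines 116 kept their side of the threshold, 17 gained a call, 6 lost one and 0 reversed. The 17 were at PACSIN2 position 51 and LRFN1 positions 51 and 13. The 139 hold no DESeq2 result for PDRG1, the chromosome 16 locus, ARMC6, CAMKK2 and the second PACSIN2 sequence. For these and MRTFA they also hold none at 50 counts in 2 libraries.

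The replicate block gave 190 adenosines, 45 totals, 175 adenosines against totals and 131 with oligonucleotides summed, and left the pooled values as they were. Under it LRFN1 position 13 (edgeR adjusted p = 0.0136) and PACSIN2 position 51 (0.0411) were called. The deviations of same-numbered libraries correlated below 0, so the crossed pairing was added after seeing the data, and gave 213, 90, 185 and 142. Depth limits the rest: 213 of 445 adenosines had too few counts to be tested, and 3 counts, the floor, are 0.226 to 0.286 CPM.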
